A study of Mus musculus with 94 samples.

Results

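The genes described here encode integrins, laminins and the other proteins of the basement membrane, as measured in single adipose-derived stem cells of perivascular adipose tissue (PV-ADSCs). Members were taken by symbol and not by their values. They are all rows of the table named as an integrin alpha chain, an integrin beta chain or a laminin chain, together with Nid1, Nid2, Hspg2, Agrn and Sparc. This gave 29 of 16069 genes, namely 11 integrin alpha chains, 4 integrin beta chains, 9 laminin chains and the 5 other components. Chains with no row, such as Lama1, Lama5, Itga3 and Itga7, were not analysed here.

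The cells were taken, without culture, from the normal adipose tissue around the aorta of mice of the strain labelled c57/bl, aged 8 weeks, and all belong to this single untreated group. The digested stromal vascular fraction was sorted for cells negative for CD144 and CD45 and positive for CD29 and Sca1, and each cell became a full-length SMARTseq v4 library. The series describes 94 cells, of which 85 were analysed and 9 were not analysed here. No animal is named for any cell, so the 85 cells count as 1 sample, and no test between cells was made. Shares of cells carry exact 95% Clopper-Pearson intervals, which cover counting error only.

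Basement membranes are thin sheets of matrix that surround adipocytes and smooth muscle cells and underlie endothelium. Laminins, trimers of an alpha, a beta and a gamma chain, assemble into a network on the cell surface, and nidogens and perlecan tie this network to the one formed by type IV collagen. Integrins are receptors made of an alpha and a beta chain that span the plasma membrane and connect the matrix to the actin cytoskeleton, and the alpha chain largely sets which ligand is bound.

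The cells were parted by Dcn, which encodes the matrix proteoglycan decorin and is no member. Cells with a deposited Dcn value of at least 1000 were called stromal cells (n = 58) and the rest other cells (n = 27). The highest Dcn value among the other cells was 269, and the lowest among the stromal cells was 6521. Whole reads were recovered from the deposited values by removing the factor by which the value of a gene had been multiplied in each cell. The cells had between 1146945 and 4776510 recovered reads, with medians of 2963850 in stromal and 2714450 in other cells, whereas genes per cell differed more, with medians of 2813 (850 to 4148) and 1416 (285 to 2278). No 2 cells held identical values.

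Markers of stromal cells were above 0 in stromal cells with a median of 8.5 of 10 (1 to 10) and in other cells with a median of 2 (0 to 5). At least 3 of these 10 were above 0 in 57 of the 58 stromal cells and in 13 of the 27 other cells. At least 3 of 15 endothelial markers were above 0 in 25 of the 27 other cells and in 13 of the 58 stromal cells. Cdh5, which encodes the CD144 protein that the sort selected against, was above 0 in 23 other and 7 stromal cells. The gene of Sca1, Ly6a, had values above 0 in 52 stromal and 21 other cells. Of 10 leukocyte markers only 4 had a row. These were at 0 in all other cells, and at most 1 was above 0 in any stromal cell. Of 7 mural markers with a row, at most 2 were above 0 in any stromal cell and at most 1 in any other cell. Among them, Abcc9 was above 0 in 10 stromal cells, and Rgs5 and Mcam in 3 other cells each. At least 3 mesothelial markers were above 0 in 2 stromal cells. Most stromal cells thus had stromal markers above 0, whereas most other cells had endothelial markers above 0. Whether the stromal cells were stem cells, as their label says, was not tested by these markers.

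One stromal cell stood apart. Its deposited Dcn value of 6521 corresponded to 69 recovered reads, compared with at least 18172 in every other stromal cell and at most 248 in the other cells. It had 850 genes, 1 of 10 stromal markers and 4 endothelial markers above 0, and 16197 recovered reads of Kdr, a receptor of vascular endothelial growth factor. The rule kept it among the stromal cells. Results that rest on it are given with and without it.

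A value of 0 in this table does not show that a transcript was missing, because genes that nearly all cells use were also listed at 0. Gapdh, a glycolytic enzyme, was at 0 in 8 stromal and 13 other cells, and Rpl13a, a ribosomal protein, in 7 stromal and 19 other cells. Low counts cannot be read as expression either. Dcn itself was above 0 in all 27 other cells, and Col3a1, a collagen of fibroblasts, in 24 of them. The number of recovered reads is therefore given beside each share of cells.

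To show the sequence in front of the laminin, nidogen and Sparc genes that were above 0 in many stromal cells, the 250 bases upstream of the annotated start of Nid1, Lama2, Lamb1 and Sparc are printed 5′ to 3′ on the strand of the gene. They come from RefSeq on build GRCm38.p6, a later build than the mm9 to which the reads were aligned. Capitals mark the GC box, GGGCGG on either strand. The windows are chr13:13437352-13437601 on the plus strand for Nid1, chr10:27616943-27617192 on the minus strand for Lama2, chr12:31265043-31265292 on the plus strand for Lamb1, and chr11:55420081-55420330 on the minus strand for Sparc.
Nid1: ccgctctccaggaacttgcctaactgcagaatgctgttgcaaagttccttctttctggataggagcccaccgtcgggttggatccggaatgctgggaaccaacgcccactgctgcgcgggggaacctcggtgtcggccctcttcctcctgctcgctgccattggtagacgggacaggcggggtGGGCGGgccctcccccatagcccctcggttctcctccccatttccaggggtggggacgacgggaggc
Lama2: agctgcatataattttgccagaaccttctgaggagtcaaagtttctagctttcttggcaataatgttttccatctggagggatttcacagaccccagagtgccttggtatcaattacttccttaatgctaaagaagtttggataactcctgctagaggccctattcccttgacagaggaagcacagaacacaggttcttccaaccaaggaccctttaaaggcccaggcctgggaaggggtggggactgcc
Lamb1: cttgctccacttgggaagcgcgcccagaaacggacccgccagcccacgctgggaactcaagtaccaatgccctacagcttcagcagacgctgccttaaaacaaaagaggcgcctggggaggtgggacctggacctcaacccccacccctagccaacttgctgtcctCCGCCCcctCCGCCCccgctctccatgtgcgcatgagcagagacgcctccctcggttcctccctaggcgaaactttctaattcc
Sparc: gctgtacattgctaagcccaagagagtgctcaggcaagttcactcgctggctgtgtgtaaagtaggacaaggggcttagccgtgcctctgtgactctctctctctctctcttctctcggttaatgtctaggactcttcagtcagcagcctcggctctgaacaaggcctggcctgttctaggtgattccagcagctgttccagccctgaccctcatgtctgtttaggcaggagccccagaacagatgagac

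The Nid1 window held 1 GC box and the Lamb1 window 2, whereas the Lama2 and Sparc windows held 0. The content of G and C was 64.4% for Nid1, 62% for Lamb1, 54% for Sparc and 47.2% for Lama2. Over windows of 300 bases that run from 250 before to 50 after the start, 20 of the 29 members had an entry that was used. A member was counted where any of its windows held the motif, whereas the shares of all windows count each window alone. The 2 measures are therefore not alike. A GC box was in at least 1 window of 11 of these 20 genes and in 35.7% of all 32851 windows. TATAAA, the TATA box, was in 0 of the 20 and in 13.6% of all windows, and TGANTCA, the AP-1 motif, was in 1 of the 20 and in 7.81% of all windows. Motifs were searched on both strands, none of them contains another, and a match is a description of the letters only.

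Of the 29 members, 18 were above 0 in at least 10 cells and are described one by one. They form the rows of the heat map over all cells, in which Sparc and Nid1 fill nearly the whole stromal block and Itga6 lies mainly in the other cells.

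**Figure D1:**
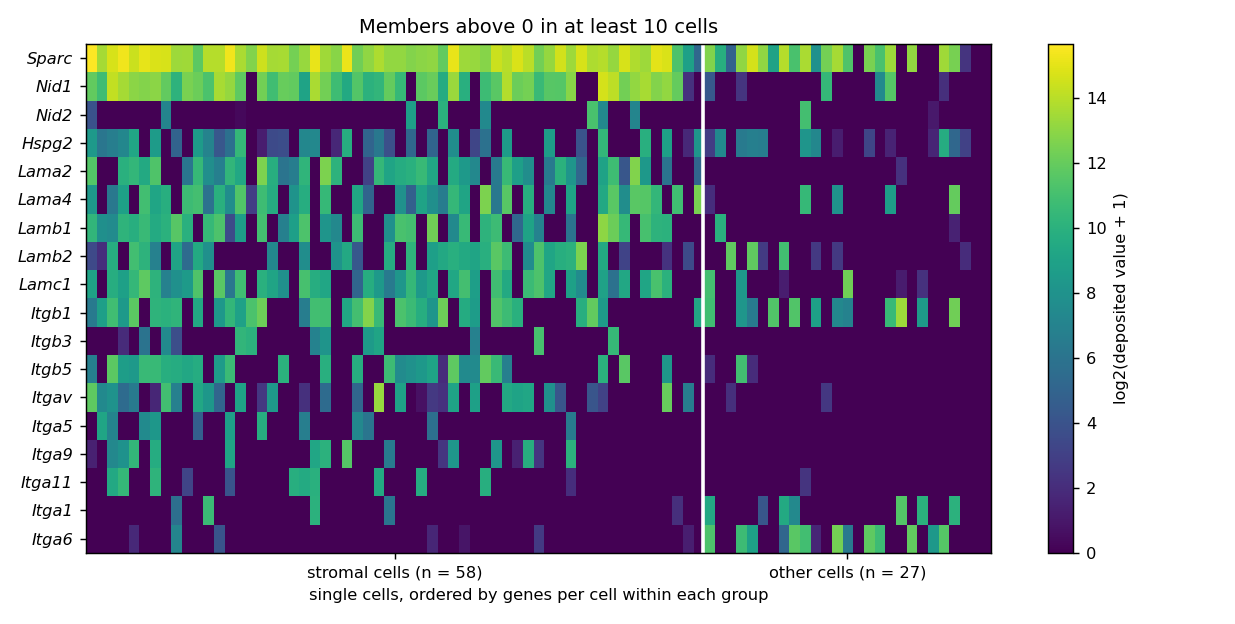
Deposited values of the 18 members above 0 in at least 10 cells, as log2(value + 1) by color, with one column for each of the 58 stromal cells (left of the white line) and 27 other cells (right), ordered by genes per cell within each group. Sparc was above 0 in all 58 stromal cells and Nid1 in 52, whereas Itga6 was above 0 in 14 other and 7 stromal cells.

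Among the alpha chains, Itgav had the widest detection in stromal cells. It encodes the alpha chain of receptors for vitronectin, fibronectin and latent TGF-β. Itgav was above 0 in 33 of 58 stromal cells (56.9%, 43.2 to 69.8), with 2 to 4552 recovered reads and a median of 220 where present, and 20 of these cells reached 100 reads. In other cells it was above 0 in 2 of 27 (7.41%, 0.910 to 24.3), with 2 and 4 reads. The groups overlapped only at these low counts and at 0.

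Itga9, a receptor chain for tenascin and the EDA segment of fibronectin, was above 0 in 17 stromal cells (29.3%, 18.1 to 42.7) with 2 to 2711 reads and a median of 312. It was above 0 in 0 of 27 other cells, where the exact interval allows a share of up to 12.8%. Itga5, the alpha chain of the main fibronectin receptor, was above 0 in 12 stromal cells (20.7%, 11.2 to 33.4) with 31 to 566 reads and a median of 166, and in 0 of 27 other cells, with the same limit. These 2 chains had reads in stromal cells alone, and only in stromal cells with more than 2278 genes, more than any other cell had.

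Itga11, a receptor chain for fibrillar collagen found on fibroblasts, was above 0 in 12 stromal cells with 2 to 2054 reads and a median of 1085, and in 1 other cell with 3 reads. Itga1, which forms a receptor for collagens and laminins, was above 0 in 5 stromal cells (8.62%, 2.86 to 18.98) with 5 to 1344 reads and a median of 91, and in 7 other cells (25.9%, 11.1 to 46.3) with 18 to 4255 reads and a median of 1102. For Itga11 and Itga1 the intervals of the shares overlapped.

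Itga6 was the member with the largest difference toward other cells. It encodes the alpha chain of laminin receptors of endothelial and epithelial cells. In other cells Itga6 was above 0 in 14 of 27 (51.9%, 31.9 to 71.3), with 2 to 14918 reads and a median of 3084, and 12 cells reached 100 reads. In stromal cells it was above 0 in 7 of 58 (12.1%, 4.99 to 23.3), with 2 to 87 reads and a median of 4, and only 1 cell reached 10 reads. The highest stromal cell was thus below 12 of the 14 other cells with reads. All 14 other cells with Itga6 had at least 3 endothelial markers above 0, compared with 11 of the 13 other cells at 0. The medians were 9 and 6 endothelial markers and 1471 and 1093 genes per cell, and the part that cell type or depth has in this difference was not tested.

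Itgb1, the common beta chain, encodes CD29, which the sort required. Itgb1 was listed at 0 in 23 stromal and 15 other cells. It was above 0 in 35 stromal cells (60.3%, 46.6 to 72.95) with 7 to 5926 reads and a median of 1094 (37 to 5926 without the cell that stood apart), and in 12 other cells (44.4%, 25.5 to 64.7) with 21 to 3293 reads and a median of 1002. The shares and the read counts overlapped throughout. All 12 other cells with Itgb1 had at least 3 endothelial markers, as did 13 of the 15 at 0.

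Itgb5 and Itgb3 pair with the Itgav chain. Itgb5 was above 0 in 30 stromal cells (51.7%, 38.2 to 65.05) with 3 to 3757 reads and a median of 820.5, and in 3 other cells (11.1%, 2.35 to 29.2), of which 2 had 3 reads and 1 had 1945. Itgb3 was above 0 in 13 stromal cells (22.4%, 12.5 to 35.3) with 4 to 2370 reads and a median of 641, and in 0 of 27 other cells, which allows up to 12.8%. Both chains therefore had more than a few reads almost only in stromal cells, with the 1 other cell for Itgb5 as the exception. Apart from a cell with 2197 genes, Itgb3 was above 0 only in stromal cells with more than 2278 genes, more than any other cell had. The difference in the mean of log2(value + 1), stromal minus other cells, was 4.20 for Itgb5 and 1.74 for Itgb3. In the range of 850 to 2278 genes per cell, which both groups shared, it was 1.59 and 1.16.

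Among the laminin alpha chains, Lama2, the chain of muscle and mesenchymal basement membranes, was above 0 in 43 of 58 stromal cells (74.1%, 60.96 to 84.7) with 3 to 4620 reads and a median of 1032. In other cells it was above 0 in 1 of 27 (3.70%, 0.0937 to 18.97), with 2 reads. Lama4, the chain of vascular and adipose basement membranes, was above 0 in 41 stromal cells (70.7%, 57.3 to 81.9) with 6 to 14352 reads and a median of 728, and in 5 other cells (18.5%, 6.30 to 38.1) with 3 to 5491 reads and a median of 432. The highest stromal count of Lama4 was that of the cell that stood apart, and without it the highest was 5057. All 5 other cells with Lama4 had at least 3 endothelial markers, as did 20 of the 22 at 0.

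Of the beta and gamma chains, Lamb1 was above 0 in 39 stromal cells (67.2%, 53.7 to 78.995) with 10 to 7382 reads and a median of 1072, and in 2 other cells, with 2 and 906 reads. Lamb2 was above 0 in 35 stromal cells (60.3%, 46.6 to 72.95) with 3 to 5485 reads and a median of 812, and in 7 other cells (25.9%, 11.1 to 46.3) with 3 to 3787 reads and a median of 6. Lamc1, the gamma chain shared by most laminins, was above 0 in 43 stromal cells (74.1%, 60.96 to 84.7) with 34 to 3180 reads and a median of 664, and in 6 other cells (22.2%, 8.62 to 42.3) with 2 to 4292 reads and a median of 172.5. At least 100 reads were reached in 1 other cell for Lamb1, in 3 for Lamb2 and in 3 for Lamc1. The highest Lamc1 count of all cells was in an other cell.

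The nidogens link laminin to type IV collagen. Nid1 was above 0 in 52 of 58 stromal cells (89.7%, 78.8 to 96.1) with 4 to 22975 reads and a median of 4388, and 51 of these cells reached 100 reads. In other cells Nid1 was above 0 in 6 of 27 (22.2%, 8.62 to 42.3) with 4 to 2859 reads and a median of 122.5. Nid2 was above 0 in 9 stromal cells (15.5%, 7.35 to 27.4) with 2 to 6294 reads and in 2 other cells with 2 and 1405 reads. The 2 nidogens thus differed widely in how many stromal cells had reads.

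Hspg2, which encodes perlecan, a heparan sulfate proteoglycan, was above 0 in 35 stromal cells (60.3%, 46.6 to 72.95) with 2 to 1153 reads and a median of 105, and in 14 other cells (51.9%, 31.9 to 71.3) with 2 to 1232 reads and a median of 70. Neither the shares nor the counts separated the groups. Agrn, which encodes agrin, another heparan sulfate proteoglycan, was above 0 in 7 stromal cells with 3 to 15322 reads and in 2 other cells with 1805 and 1852 reads. The cell that stood apart held the highest count of Agrn, and the highest in the 6 stromal cells without it was 3049.

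Sparc, which encodes a collagen-binding protein of matrix and basement membranes, was above 0 in all 58 stromal cells (93.8 to 100%), with 5 to 58995 reads and a median of 15087. The lowest count was that of the cell that stood apart, and the next stromal cell had 365. In other cells Sparc was above 0 in 21 of 27 (77.8%, 57.7 to 91.4) with 7 to 10555 reads and a median of 6180, and 19 of these cells reached 100 reads. Sparc was therefore read in both groups, and 20 of the 21 other cells with it had at least 3 endothelial markers, as did 5 of the 6 at 0.

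**Figure D2:**
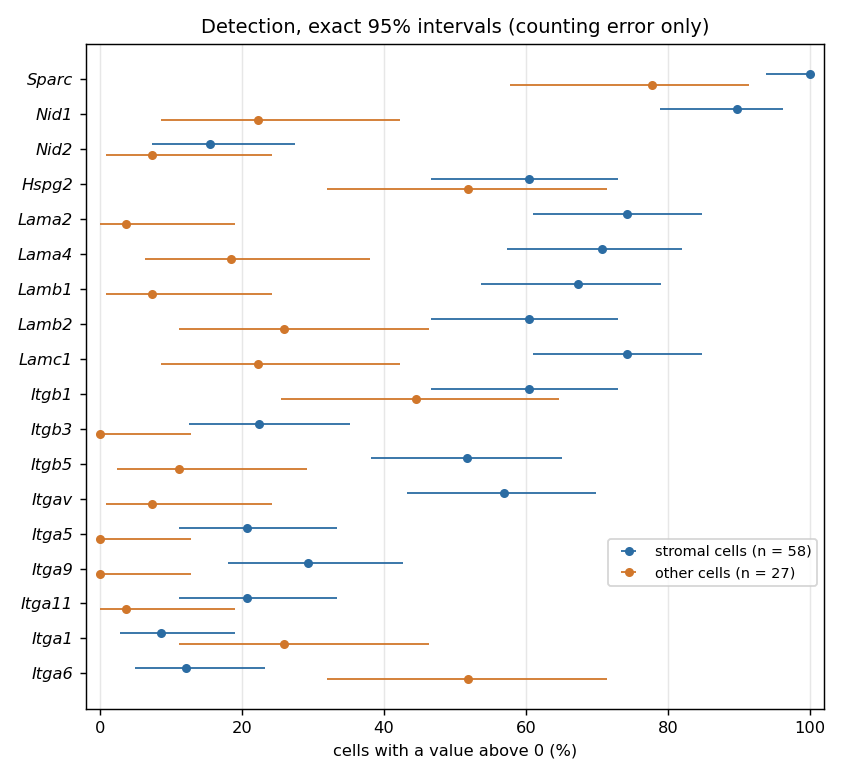
Share of cells with a value above 0 (x axis, percent) for the 18 members above 0 in at least 10 cells, in 58 stromal (blue) and 27 other cells (orange), with exact 95% intervals that cover counting error only. The share was at least 25 points higher in stromal cells for Nid1, Lama2, Lama4, Lamb1, Lamb2, Lamc1, Itgb5, Itgav and Itga9. These are 9 of the 20 members above 0 in at least 3 cells, compared with 18.6% of all such genes. Itga6 alone was at least 25 points higher in other cells, compared with 0.828% of all such genes. The intervals of Itgb1, Itgb3, Itga1, Itga5, Itga11, Hspg2 and Nid2 overlapped between the groups.

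The other 11 members were above 0 in fewer than 10 cells, Agrn among them with 9. Itga2b, the platelet chain, was above 0 in 3 stromal cells with 62 to 536 reads, and Lamc3 in 2 stromal cells with 99 and 242 reads. Itga2, Itga8, Itga10, Lama3 and Lamb3 were each above 0 in 1 stromal cell, with between 17 reads for Itga2 and 667 reads for Lamb3. Itga4 and Itgb4 were each above 0 in 1 other cell, with 138 and 214 reads.

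**Figure D3:**
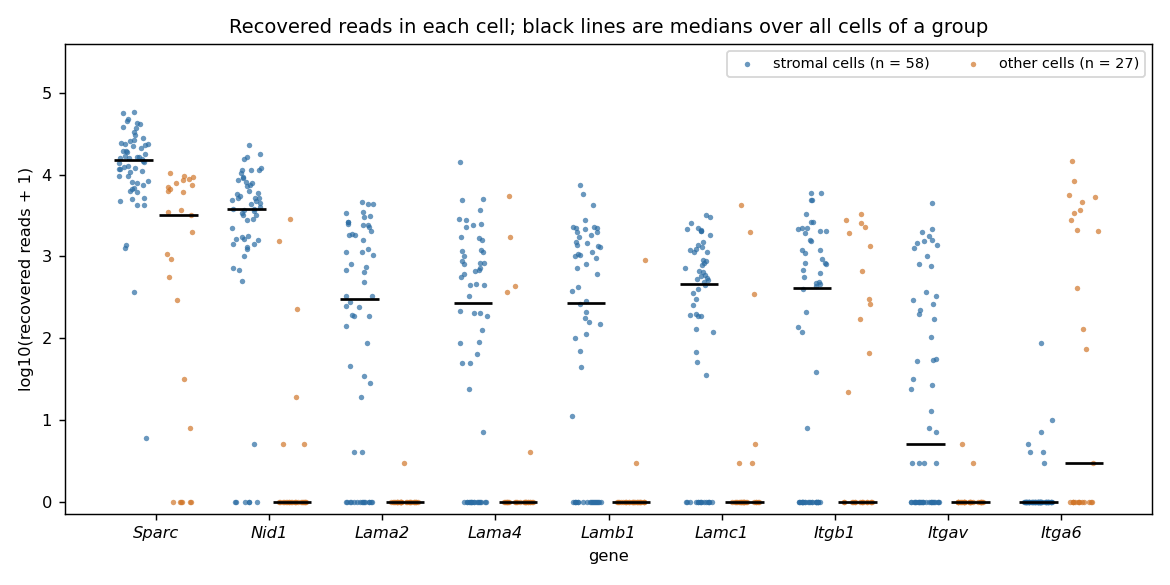
Recovered reads in each cell as log10(reads + 1) for 9 members, with stromal cells (n = 58) in blue and other cells (n = 27) in orange, points spread sideways for visibility and black lines at the median over all cells of a group, cells at 0 included. Stromal cells reached 22975 reads for Nid1 and 58995 for Sparc, whereas for Itga6 other cells reached 14918 and stromal cells 87.

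Levels can be set against each other between genes only per length, so recovered reads were scaled to CPM and divided by the kilobases of annotated exons (CPM per kb). In stromal cells the mean CPM per kb over all 58 cells was highest for Sparc, with 1569 ± 1106 (SD over cells), followed by Nid1 with 262 ± 248. All other members were below 81, and the order of Itgb1 with 80.6 ± 115, Itgb5 with 51.004 ± 82.2, Lamb1 with 35.2 ± 53.5, Lamc1 with 32.9 ± 43.1, Lamb2 with 31.8 ± 56.3 and Lama2 with 20.2 ± 25.3 lay within the spread between cells. Lama4 had 41.8 ± 138 with the cell that stood apart and 24.3 ± 37.1 without it, and Agrn had 28.6 ± 189 with it and 3.81 ± 14.6 without it. In other cells the CPM per kb was 406 ± 412 for Sparc, 92.7 ± 170 for Itga6 and 55.9 ± 102 for Itgb1, and 14.9 or less for each of the other members.

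To compare the groups, the difference in the mean of log2(value + 1), stromal minus other cells, was taken for every gene above 0 in at least 3 cells, and a gene was called higher where the difference was 2 or more in size. Of the 29 members, 20 passed the filter. Of these, 10 were higher in stromal cells, compared with 16.4% of the 11478 genes tested, and 1 was higher in other cells, compared with 1.09% of the genes tested. The remaining 9 were between. The share over all genes depends on the filter. Among genes above 0 in at least 10 cells, 10 of 18 members were higher in stromal cells, compared with 30.7% of such genes. With that filter 1 member was higher in other cells, compared with 1.89% of such genes. The median difference was 1.96 over the 20 members and 0.64 over all genes tested, of which 83.6% had a difference above 0.

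The members called higher in stromal cells were Nid1 with a difference of 9.17, Lama2 with 6.43, Lamb1 with 5.97, Lamc1 with 5.52, Lama4 with 4.92, Sparc with 4.64, Itgb5 with 4.20, Itgav with 3.72, Lamb2 with 3.35 and Itga9 with 2.17. These are 5 laminin chains, 3 integrin chains, 1 nidogen and Sparc. Itga9 lay close to the rule. It fell below it on CPM (1.76), with a pseudocount of 10 (1.33) and with only the stromal cells of few endothelial markers (1.96). The member called higher in other cells was Itga6 with a difference of -4.60. Nid1 had a mean of 10.58 ± 4.04 (SD over cells) in stromal and 1.41 ± 3.23 in other cells, and Itga6 had 0.33 ± 1.16 and 4.94 ± 5.33. The differences of Itgb1 (1.75), Itgb3 (1.74), Itga11 (1.60), Itga5 (1.51), Hspg2 (1.24), Nid2 (0.64) and Itga1 (-1.70) did not reach the size rule. Itgb1 reached it with a split at a Dcn value of 100 (2.23) and with only the stromal cells of few endothelial markers (2.05). With a pseudocount of 0.1, Itgb1, Itgb3, Itga11, Itga5 and Itga1 reached it.

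Genes per cell differed between the groups together with these differences. In the range that both groups shared, 850 to 2278 genes per cell, there were 9 stromal and 24 other cells. In these cells 6 members were higher in stromal cells, namely Lama2, Lama4, Lamb1, Lamc1, Nid1 and Sparc, compared with 8.76% of genes tested, and 3 were higher in other cells, namely Itga1, Itga6 and Itgb1, compared with 3.45% of genes tested. The difference of Itgb1 became -3.80 and that of Lamb2 -0.77. Those of Itga9 and Itga5 became 0 because all cells of both groups in this range were at 0. That of Itga11 became -0.10, from 1 other cell with 3 reads, with all stromal cells of the range at 0. Those of Itgav (1.88), Itgb5 (1.59) and Itgb3 (1.16) stayed above 0 but were below the size rule.

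Without the cell that stood apart, the 10 and 1 members over all cells were the same genes. That cell set the lower end of the shared range and was the only stromal cell in it with Itgb1 above 0. The range without it was 1182 to 2278 genes, with 8 stromal and 17 other cells, in which 7 members were higher in stromal cells (9.61% of genes tested), with Itgav added to the 6, and 2 in other cells (4.97% of genes tested), Itga6 and Itgb1. There Itgb1 was above 0 in 0 of 8 stromal and 8 of 17 other cells, with a difference of -4.21.

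**Figure D4:**
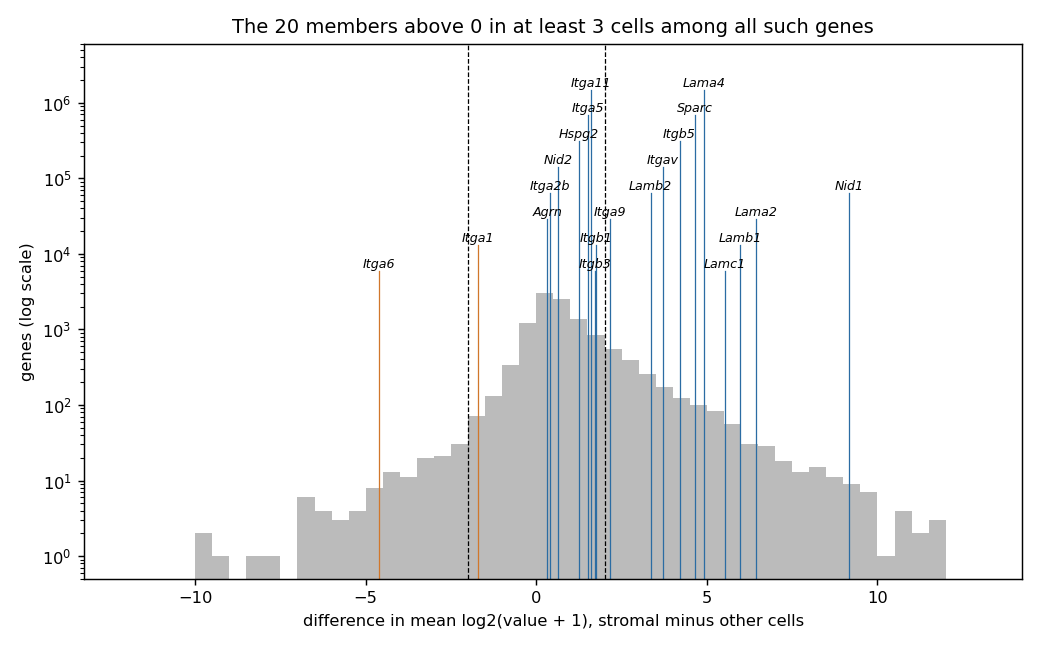
Difference in mean log2(value + 1), stromal minus other cells (x axis), for the 11478 genes above 0 in at least 3 cells (gray histogram, log axis), with the 20 members among them marked by lines whose heights only separate the labels, and with dashed lines at the size rule of 2. Nid1 lay at 9.17 and Itga6 at -4.60, and the median of all genes was 0.64.

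Chains of one receptor or one laminin must be made by the same cell, so cells with every chain above 0 were counted. All chains of at least 1 known integrin pair were above 0 in 33 of 58 stromal cells (56.9%, 43.2 to 69.8) and in 10 of 27 other cells (37.04%, 19.4 to 57.6). In stromal cells the pair of Itgav and Itgb1 was found in 25 cells, Itgav and Itgb5 in 20, Itga9 and Itgb1 in 12, Itga5 and Itgb1 in 10, Itga11 and Itgb1 in 8, and Itgav and Itgb3 in 7, and each of these pairs was found in 0 other cells. The laminin receptor of Itga6 and Itgb1 was above 0 in 7 other and 5 stromal cells, and at 10 reads of each chain in 6 and 1. The collagen receptor of Itga1 and Itgb1 was above 0 in 5 other and 2 stromal cells. In 17 stromal and 11 other cells an alpha chain was above 0 while Itgb1 was listed at 0. Genes per cell, with medians of 2813 in stromal and 1416 in other cells, differed together with these counts. In the shared range of 1182 to 2278 genes, Itgb1 was above 0 in 0 of 8 stromal and 8 of 17 other cells. No pair with Itgb1 was therefore complete in those 8 stromal cells. The part that genes per cell have in the counts of pairs was not tested.

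For the laminins, all 3 chains of at least 1 trimer were above 0 in 37 stromal cells (63.8%, 50.1 to 76.01) and in 0 of 27 other cells, which allows up to 12.8%. All of these trimers hold Lamc1. Lama2 was found with Lamb1 and Lamc1 in 27 stromal cells and with Lamb2 and Lamc1 in 23, and Lama4 was found with Lamb1 and Lamc1 in 27 and with Lamb2 and Lamc1 in 20. With at least 10 reads of each chain the numbers were 27, 20, 27 and 17, and the number of cells with any trimer was again 37.

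**Figure D5:**
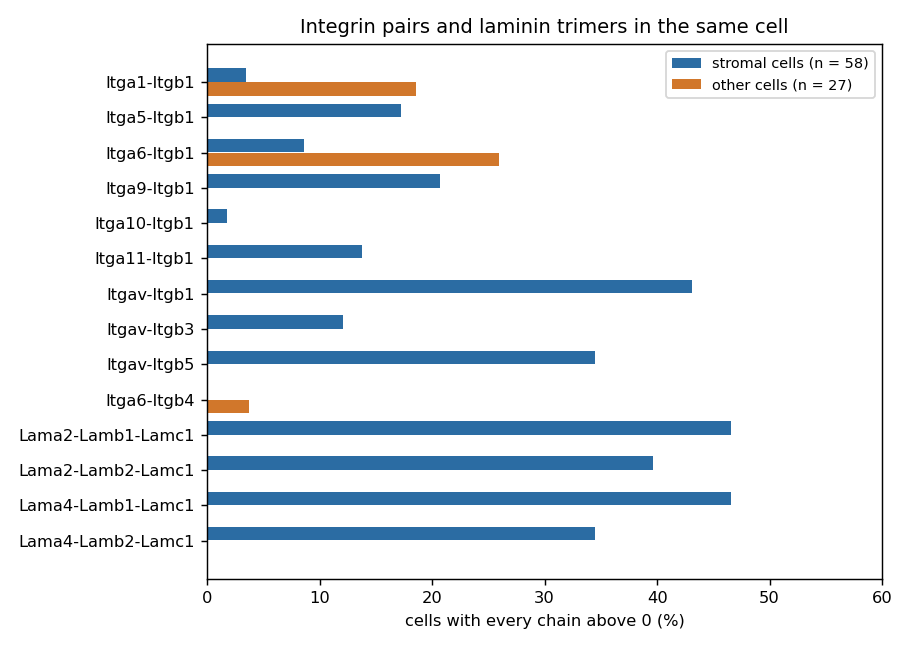
Share of cells (x axis, percent) in which every chain of an integrin pair or laminin trimer was above 0, in 58 stromal (blue) and 27 other cells (orange), for the pairs and trimers found in at least 1 cell. All 4 laminin trimers were complete in stromal cells alone (20 to 27 cells each), and the pair of Itga6 and Itgb1 was found in 25.9% of other and 8.62% of stromal cells.

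The stromal cells varied in which chains they held. Both Lama2 and Lama4 were above 0 in 33 stromal cells, Lama2 alone in 10, Lama4 alone in 8 and neither in 7. Both Lamb1 and Lamb2 were above 0 in 25, Lamb1 alone in 14, Lamb2 alone in 10 and neither in 9. Nid1 and Lamc1 were above 0 together in 40, and no laminin chain was above 0 in 1 stromal cell and in 11 other cells. In other cells Lama2 and Lama4 were never above 0 together, with Lama2 in 1 cell and Lama4 in 5.

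Per cell, a median of 9 members (4 to 15) was above 0 in stromal cells and of 4 (0 to 9) in other cells. Per 100 genes above 0, the medians were 0.325 and 0.311 members, and thus lay close together once the number of genes was taken into account. Summed over chains, the median of laminin reads was 4171 in stromal and 5 in other cells, whereas the median of integrin reads was 1872 and 1422. The laminin reads therefore differed far more between the groups than the integrin reads.

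Among the 58 stromal cells, 11 members were above 0 in at least 50% of cells. Sparc had the smallest SD of log2(value + 1) of these, 1.61 (1.18 without the cell that stood apart), and Itgb1 the largest, 5.08. Spearman's rho over the 55 pairs of these members lay between -0.21 and 0.50 (median 0.14), and 8 pairs exceeded 0.3 in size. The highest was that of Nid1 and Sparc with 0.50, which was 0.36 on CPM, and 0.48 and 0.33 on the 2 scales without the cell that stood apart. Lama4 and Nid1 had 0.39, or 0.46 without that cell, and Itgb5 and Lamb1 had 0.37. Lamb1 and Lamc1, chains of the same trimers, had 0.36, or 0.34 without that cell. Members measured in the same cells share the depth and the number of genes of a cell and are not independent, and in data with many zeros such weak values are a description only.

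The other genes of the pathway were followed in lists, again beside the 16.4% and 1.09% of all genes tested. Among genes above 0 in at least 10 cells these shares were 30.7% and 1.89%. Of 21 other basement membrane genes above 0 in at least 3 cells, 10 were higher in stromal and 2 in other cells, with a median difference of 1.24. Those higher in stromal cells included the fibulins Fbln1 (9.01), Fbln2 (8.61) and Fbln5 (4.88), which bind laminin, fibronectin or elastic fibers, and Ecm1 (8.34). Those higher in other cells were Col4a2 (-3.54), a chain of type IV collagen, and Tinagl1 (-3.10), a matrix protein of blood vessels. The other main chain of type IV collagen, Col4a1, had 1.20 and was above 0 in 39 stromal and 15 other cells.

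Of 21 other receptors for laminin, collagen and matrix, 13 were higher in stromal and 0 in other cells, with a median of 3.58. Cd63 (9.40), a tetraspanin of endosomes, Gpc3 (8.00), a glypican, Rpsa (6.98), a ribosomal protein also known as the laminin receptor, and Cd47 (6.71), an integrin-associated protein, had the largest differences. Dag1, the dystroglycan that binds laminin alpha chains, had 3.39 and was above 0 in 28 stromal cells and 1 other cell. Of 26 integrin adaptors and focal adhesion genes, 7 were higher in stromal and 0 in other cells, with a median of 0.73, close to that of all genes. They included Rap1b (4.13), a small GTPase, Flna (3.51), an actin crosslinker, Ilk (2.59), the integrin-linked kinase, and Tns1 (2.27), a tensin.

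Of 27 integrin ligands other than laminins, 16 were higher in stromal and 2 in other cells, with a median of 2.89. The largest differences were those of Col3a1 (10.86), Fn1 (10.17), Col6a1 (9.47) and Col1a1 (9.21), which encode fibrillar collagens, fibronectin and type VI collagen. Col3a1, Col1a1 and Col1a2, all among the 16, also served as stromal markers. Those higher in other cells were Sparcl1 (-4.39), a relative of Sparc, and Icam2 (-2.32), an adhesion protein of endothelium. Sparc and Sparcl1 thus lay on opposite sides. The lists hold several genes that fibroblasts use for other ends, and the counts say nothing of one pathway.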

How the data were processed

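Single cells were sequenced as 1 library each. The authors aligned reads to mm9 with HISAT2 2.0.5 and used SAMtools 1.4 and StringTie 1.3.3, per the labels, and normalized with scater. The unit of the deposited table, which lists 16069 genes in 85 cells, is a signal (normalized counts of reads). The program that counted reads is not given in the sources used here. Whole reads were recovered by finding, in each cell, the factor shared by each of 13 groups of genes. Of 144272 such values 11 were not whole (absolute tolerance 1e-08, relative 2e-09), and 20 pairs of cell and group had fewer than 10 values, where the factor is less certain. The method was devised after the values had been seen and was tested on simulated data. Of the members, 17 had such factors and 12 held whole numbers. Detection was a value above 0, with 10 and 100 recovered reads beside it, and differences used a pseudocount of 1. Members above 0 in at least 10 cells were described one by one. Of each list at most 4 genes in each direction were named by size. Col4a1 and Dag1 were added after their values were seen, and Col1a2 was added as a stromal marker. The values of 1 member are not reported here. The members and lists were chosen with earlier results of these data known. Exon lengths came from GENCODE annotation of a later build. Alternatives were other values of Dcn, pseudocounts, size rules and filters, CPM, thinning to 1146945 reads, and subsets of cells. Python 3.11.15, numpy 2.4.6, pandas 2.3.3, scipy 1.17.1, networkx 3.6.1 and matplotlib 3.10.9 were used.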

Additional observations from a re-analysis of the deposited data

How the results depend on the processing

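The number of members higher in other cells was 1 and became 2 with a pseudocount of 0.1 and 2 with a size rule of 1, where Itga1 was added, and 3 in the shared range of genes per cell, where the number higher in stromal cells was 6. In that range Itga11 (-0.10), Itgb1 (-3.80) and Lamb2 (-0.77) changed sign, and Itga5 and Itga9 became 0. For Itga11 all stromal cells of the range were at 0, and the value came from 1 other cell with 3 reads. That range holds 9 of the 58 stromal cells, and the cause was not tested. In the range found without the cell that stood apart, with 8 stromal cells, 2 members were higher in other cells, and Itga11 (-0.14), Itgb1 (-4.21), Lamb2 (-1.38) and Hspg2 (-0.37) had the opposite sign to that over all cells. The value of Itga11 there again came from that other cell with 3 reads. The number higher in stromal cells was 14 with the pseudocount of 0.1 and 15 with the size rule of 1. Under the other alternatives, which set no range of genes per cell, it was between 9 and 11, and Itga6 was the 1 higher in other cells. Of the alternative values for counts, 41 moved by at most 1.5 times and 5 by more. Of 198 for single genes, 187 kept their sign, 7 changed it and 4 became 0. Without the cell that stood apart, a choice made after seeing the data as was the range without it, the calls over all cells were the same 10 and 1 genes. Detection depends on depth, and a share of cells above 0 can miss cells with a transcript and can include cells with only a few reads. No paired analysis was possible because all cells belong to 1 group.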
